A study of Rattus norvegicus with 8 samples.

Results

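The genes described here encode the motors that carry cargo along microtubules: the kinesins and their light chains, cytoplasmic dynein, and dynactin, the complex that couples dynein to cargo. All gene symbols beginning with Kif or Klc and a digit, or with Dync, Dynl or Dctn, were taken from the authors' deposited table of the somatic comparison, which gave 53 of its 17320 genes. Values in the single libraries were found for 49 of the 53. Dync2li1, Kif13b, Kif19 and Kif21b were not matched to a transcript and are described from the authors' tables alone.

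The neurons came from dorsal root ganglia of embryonic day 15 rats and were grown for 7 days in microfluidic chambers, in which axons extend into a compartment separate from the cell bodies. On the day of plating they received a lentivirus that expressed either a control hairpin (shControl) or a hairpin against Pum2 (shPum2), an RNA-binding repressor of translation. Each of the 4 groups, somatic or axonal RNA with either hairpin, held 2 libraries. All 4 groups thus carried a lentivirus, and no library came from cells without one. The labels do not say that the 2 libraries of a group came from separate cultures, so p-values measure only the spread between these libraries, which may be technical. The source of somatic RNA is labelled as cell bodies together with axons. A standard kit was used for somatic RNA and a kit for very small inputs for axonal RNA. The effects of kit and compartment therefore cannot be told apart.

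Most kinesins walk toward the plus ends of microtubules, which point to the growing tip in an axon, and so carry vesicles, mitochondria and membrane proteins outward. Dynein walks the other way and brings neurotrophin signals, endosomes and lysosomes back to the cell body, which long sensory axons depend on. Another set of kinesins builds the mitotic spindle and is expressed mainly in dividing cells, which neurons are not.

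The somatic libraries held between 16725902 and 25821800 estimated counts and the axonal ones between 11641980 and 16131627. The top 10 genes of a library held between 5.92% and 6.60% of its counts in somatic RNA, and between 24.3% and 30.4% in axonal RNA. All 12 neuron markers were found with at least 3 counts in every library except axonal shPum2 replicate 2, which had 11. Summed markers of macrophages and blood reached 222 to 3504 CPM (counts scaled to the library total) in axonal libraries and 47.9 to 200 CPM in somatic ones. Of their 8 genes Cd74 had 0 counts in all axonal libraries. Schwann and satellite glia markers summed to 70.2 to 192.5 CPM in axonal and 38.7 to 96.1 CPM in somatic libraries. Fibroblast markers summed to 69.0 to 724 CPM in axonal and 1625 to 8515 CPM in somatic libraries. For markers of dividing cells the sums were 33.6 to 62.4 and 70.6 to 187 CPM. Pum2 itself was at 46.7 and 44.6 TPM (a share of the library's transcripts, corrected for their length) in somatic shControl and at 10.8 and 10.2 TPM in somatic shPum2, a log2 change of -2.13 (SE 0.07, adjusted p = 0.0247, edgeR). In axonal libraries Pum2 was at 0.390 and 0.0578 TPM with shControl and 0.197 and 0.808 TPM with shPum2, so the knockdown cannot be read there. Fewer cells of a type and less RNA per cell cannot be told apart in such bulk RNA.

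In somatic RNA the most abundant of these genes by TPM was Klc1, the kinesin light chain that binds cargo, with a mean of 1254 TPM ± 86.5 (SD, n = 4). It was followed by the small dynein light chains Dynlt1 (897 ± 44.4 TPM) and Dynll1 (789 ± 20.8 TPM), and the ranges of these 3 did not overlap. Dynlrb1 (595 TPM), Dynll2 (585 TPM) and the neuronal heavy chain Kif5a (561 TPM) came next, and here each range overlapped its neighbour's. In axonal RNA the order changed to Dynlt1 (2415 ± 431 TPM), Dynlrb1 (1959 ± 243 TPM) and Dynll1 (1470 ± 293 TPM), of which the first overlapped the second and the second the third. Next came Klc1 with 578 ± 155 TPM, and then Dctn3, a small shoulder subunit of dynactin, with 308 ± 52.8 TPM. Summed over the 49 genes, TPM averaged 8669 in somatic and 7550 in axonal libraries, so the total was of similar size while its make-up differed.

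**Figure D1:**
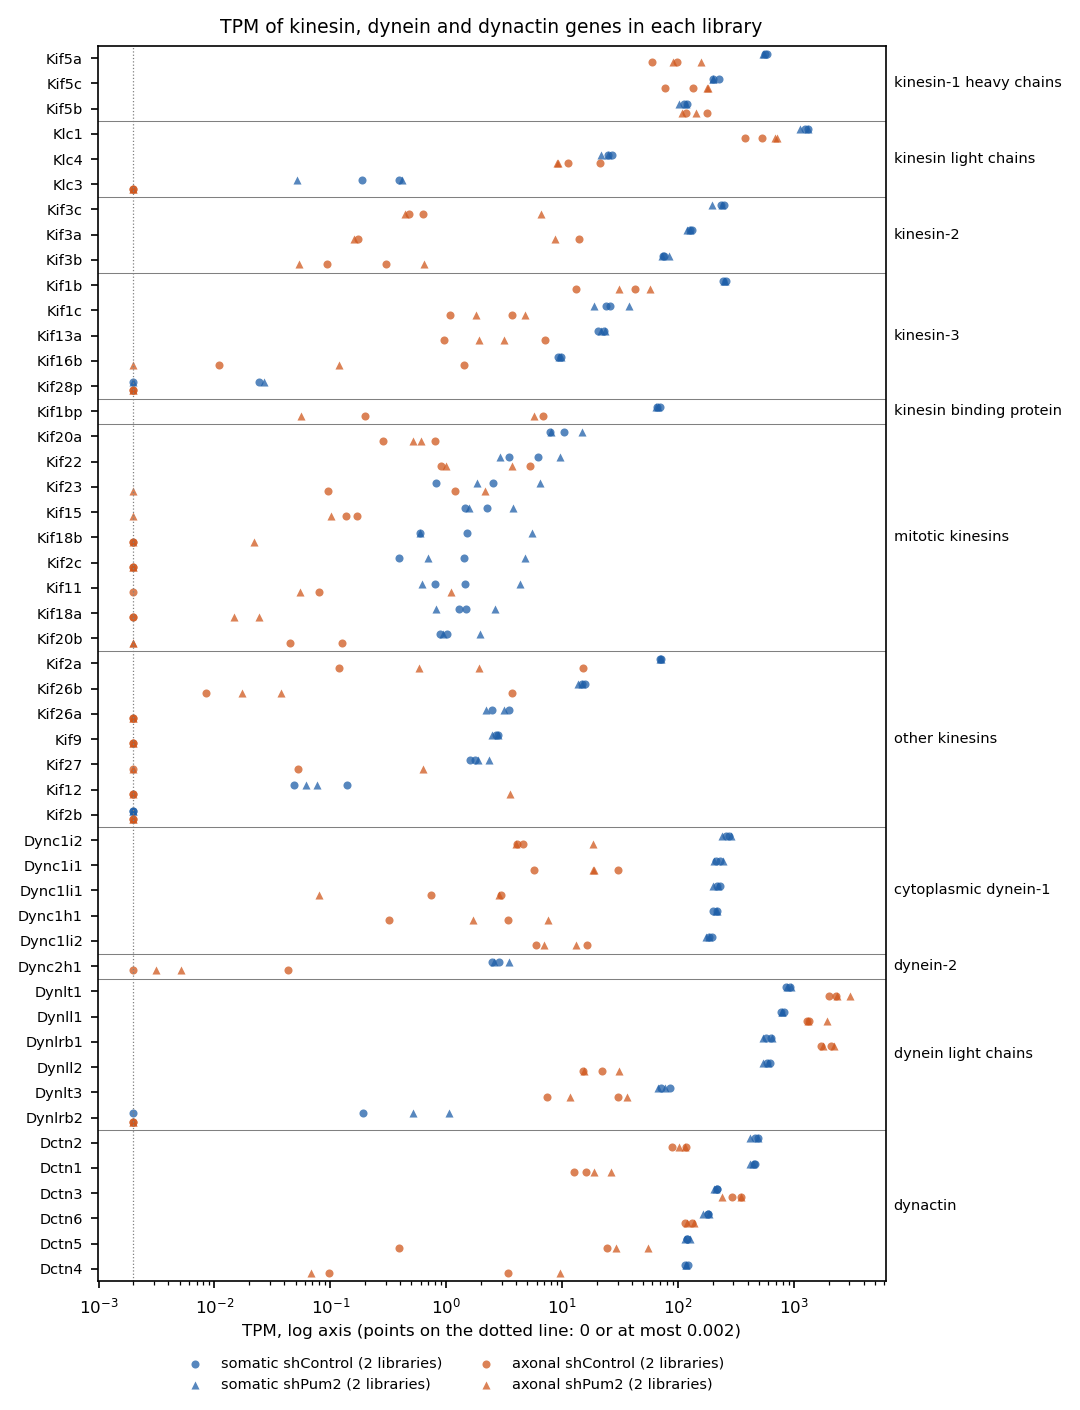
TPM (log axis) of the 49 genes in each of the 8 libraries, grouped by motor class. Blue points are somatic and orange points axonal libraries, circles shControl and triangles shPum2, and points on the dotted line are 0 or at most 0.002 TPM. The axonal points lie left of the somatic ones in most rows, but right of them for Dynlt1, Dynll1, Dynlrb1 and Dctn3.

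By class, the dynein light chains alone had a higher summed TPM in axonal RNA, with a mean of 5886 against 2941 in somatic RNA. The classes that form the conventional kinesin were lower but remained abundant: heavy chains averaged 880 somatic and 379 axonal TPM, and light chains 1279 and 590 TPM. Dynactin averaged 1537 somatic and 588 axonal TPM. The remaining classes were far lower in axons. Cytoplasmic dynein-1, the motor complex without its light chains, averaged 1101 and 41.6 TPM. Kinesin-2, a family of heteromeric motors that also works in cilia, averaged 430 and 8.01 TPM. Kinesin-3, which includes carriers of synaptic vesicle precursors, averaged 310 and 42.4 TPM without Kif13b, which had no library values. Kif1a, Klc2 and Kif17 were not among the 53 genes, so the sums of their classes leave them out. Dynlrb2, Klc3, Kif28p, Kif2c, Kif26a, Kif2b and Kif9 had 0 counts in all 4 axonal libraries, and Kif2b also in all somatic ones.

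Replicates differed far more in the axonal libraries. Among genes with at least 3 counts in both replicates, the median ratio between replicates was 1.07 for somatic shControl and 1.14 for somatic shPum2, against 2.75 and 1.86 for the axonal groups. The largest axonal ratios were 127 and 104, so a low axonal level of a single gene is known only within wide limits. The biological coefficient of variation fitted by edgeR was 23.5% in the somatic fit, 125% in the axonal fit and 91.1% in the fit of all 8 libraries.

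Axonal and somatic RNA were compared within each hairpin, and 44 of the 49 genes passed the filter on low counts. The 8 genes higher in axonal shControl RNA were the light chains Dynlrb1, Dynlt1 and Dynll1, the dynactin subunits Dctn3 and Dctn6, the kinesin heavy chains Kif5b and Kif5c, and Klc1. The same 8 were higher in axonal shPum2 RNA. Lower in axonal RNA were 9 genes with shControl and 10 with shPum2, of which 7 were shared: Dctn1, Dync1i2, Kif3b, Kif3c, Kif9, Kif18a and Kif26a. These counts are from edgeR's quasi-likelihood test with a Benjamini-Hochberg adjusted p under 0.05 over all 12337 genes tested. The background was 9.41% of genes higher and 18.5% lower with shControl, and 8.45% higher and 16.2% lower with shPum2. The members' shares were 18.2% higher and 20.5% lower with shControl, and 18.2% higher and 22.7% lower with shPum2. Since all 8 libraries entered 1 fit, the spread was shared between both comparisons. The calls depended on which libraries were in the fit, for a reason not tested: leaving out either somatic library of the hairpin compared ended all of them. Leaving out a somatic library of the other hairpin ended most of them, while the light chains Dynlrb1, Dynlt1 and Dynll1 kept theirs each time. The share of all genes still called in those fits is not given here, so this is no result about the light chains.

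The direction of a change depended on what it was set against. The scaling of the main fit (TMM, which takes most genes as unchanged) put the median gene at a log2 change of -0.75 with shControl and -0.64 with shPum2, while scaling by total counts put it at -2.34 and -2.03. The median over the 44 tested motor genes was -0.87 and -1.53 in the main fit, and these medians did not move when genes with 0 axonal counts in a group were set at their bound. With total counts 5 genes were higher with either hairpin (Dynlrb1, Dynlt1, Dynll1, Dctn3 and Kif5b), and 17 and 14 were lower, against 4.94% and 4.36% of all genes higher and 29.2% and 24.4% lower. On the TPM scale the same 5 genes were the ones above their somatic level with both hairpins, where 12.5% and 11.1% of all genes were. TPM and count scales differ here because axonal reads lay on shorter transcripts: counts divided by counts per effective base gave 679 to 799 bases in axonal and 1658 to 1686 bases in somatic libraries. The change relative to the median gene is therefore given as well for the genes called, other than those with 0 or a few axonal counts.

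The small light chains of dynein link the motor to cargo and hold its intermediate chains together. Dynlrb1, the roadblock light chain, stood at 571, 632, 535 and 641 TPM in the somatic libraries (shControl replicates 1 and 2, then shPum2 replicates 1 and 2, as in all lists of 4 below) and at 2090, 1721, 1794 and 2233 TPM in the axonal ones. Dynlt1, a light chain of the Tctex type, stood at 857, 923, 862 and 946 TPM in somatic RNA and at 2015, 2282, 2337 and 3027 TPM in axonal RNA. For Dynll1 the values were 815, 764, 791 and 785 TPM against 1352, 1291, 1329 and 1907 TPM. In all 3 genes every axonal library lay above every somatic library. Here and for the genes below, the share of all genes whose compartments separate in this way by TPM was not counted. The log2 changes with shControl were 4.44 (SE 0.53), 4.03 (SE 0.49) and 3.51 (SE 0.52), with adjusted p of 0.00587, 0.00611 and 0.00967 from edgeR, and 5.19, 4.79 and 4.27 relative to the median gene. With shPum2 they were 4.58, 4.38 and 3.88, with adjusted p of 0.00625, 0.00620 and 0.00818. Their direction held under total-count scaling, with log2 changes of 2.85, 2.45 and 1.93 for shControl. Axonal shPum2 replicate 2 held the highest level of each of the 3. The part of non-neuronal cells in these axonal levels was not tested.

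The other light chains did not follow. Dynll2 encodes a near-identical form of the Dynll1 protein from a longer transcript (2370 against 801 bases). It stood at 614, 586, 541 and 599 TPM in somatic RNA and at 15.2, 21.9, 15.5 and 30.9 TPM in axonal RNA. The axonal libraries were all below the somatic ones. The log2 change was -2.28 (SE 0.63, adjusted p = 0.0386, edgeR) with shControl, or -1.52 relative to the median gene, and with shPum2 it was not past the threshold. The call was lost with RLE scaling (adjusted p = 0.0956), in DESeq2 (0.0603), in limma voom (0.0602) and without either axonal shControl library. Dynlt3 was at 67.5 to 84.3 TPM in somatic and 7.45 to 35.9 TPM in axonal RNA, and its log2 change of 0.78 with shControl (SE 0.78) did not pass the test and turned to -0.82 with total-count scaling.

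The large subunits of dynein-1 were low in axons. Dync1h1, the heavy chain that holds the motor domain and is encoded by a transcript of 14279 bases, stood at 200, 216, 218 and 211 TPM in somatic RNA and at 0.319, 3.38, 7.47 and 1.69 TPM in axonal RNA. The groups were far apart, and the 4 axonal values spanned a wide range. Its log2 change was -4.14 (SE 1.04, adjusted p = 0.0300, edgeR) with shControl, or -3.38 relative to the median gene, and missed the threshold with shPum2. The call was lost in the fit of the 4 shControl libraries (adjusted p = 0.0920). The intermediate chain Dync1i2, which joins the heavy chain to dynactin, stood at 256, 274, 241 and 284 TPM against 4.08, 4.62, 18.4 and 4.01 TPM, and was lower with both hairpins (log2 change -3.18, adjusted p = 0.0165, and -2.12, adjusted p = 0.0330, edgeR), or -2.43 and -1.48 relative to the median gene. Its calls were lost in limma voom (adjusted p = 0.0890 and 0.179), and with shPum2 also without the filter, with the replicate block (0.0562) and in the fit of 4 libraries. Dync1i1, the form enriched in neurons, was at 214, 230, 204 and 245 TPM against 5.74, 30.5, 18.9 and 18.3 TPM and did not pass with either hairpin. Of the light intermediate chains, which bind cargo adaptors, Dync1li1 was at 217, 228, 200 and 222 TPM against 0.734, 2.94, 2.83 and 0.0803 TPM. It passed with shPum2 alone (log2 change -4.90, adjusted p = 0.0456, edgeR, or -4.27 relative to the median gene), and with shControl the change was -4.22 (adjusted p = 0.0592). That call was lost without the filter, with the replicate block (adjusted p = 0.0795), in the fit of 4 libraries and without axonal shPum2 replicate 2. Dync1li2 was at 175 to 195 TPM against 5.93 to 16.3 TPM and did not pass. Dync2h1, the heavy chain of the dynein of cilia, was at 2.50 to 3.48 TPM in somatic RNA, and the axonal libraries held 0, 10, 1 and 1 counts. On total counts, and with a 95% counting interval of 91.3 to 2734, its somatic level was 331-fold the axonal one with shPum2. It passed there (adjusted p = 0.0467, edgeR), but not with RLE scaling, without the filter, with the replicate block (0.0789) or without either axonal shPum2 library.

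Dynactin subunits went in both directions. Dctn1, the large subunit that binds microtubules and dynein, stood at 464, 454, 415 and 444 TPM in somatic RNA and at 16.1, 12.7, 26.5 and 18.9 TPM in axonal RNA. Dctn3 stood at 218, 218, 203 and 212 TPM against 292, 352, 241 and 349 TPM, with every axonal library above every somatic one. Dctn6, a subunit of the pointed end of the complex, stood at 180, 183, 164 and 186 TPM against 132, 114, 137 and 118 TPM. Dctn1 was lower in axons (log2 change -2.23 and -1.55, adjusted p = 0.0119 and 0.0233, edgeR), and stood at -1.48 and -0.91 relative to the median gene. Its shPum2 call was lost with RLE scaling (adjusted p = 0.0971), in DESeq2 (0.0574), in limma voom (0.0861) and in the fit of 4 libraries (0.0586). Dctn3 was higher (3.32 and 3.34, adjusted p = 0.0126 and 0.0139, edgeR, or 4.07 and 3.98 relative to the median gene). Dctn6 was also higher on the count scale (2.21 and 2.27, adjusted p = 0.0202 and 0.0203, or 2.96 and 2.91 relative to the median gene), although its TPM was lower in axons. With total-count scaling Dctn6 kept its sign at 0.62 and 0.70 but was no longer called. Dctn2, which holds the shoulder of dynactin together, was at 420 to 493 TPM against 89.1 to 117 TPM, and Dctn4 and Dctn5 were among the genes with the widest axonal spread (0.0674 to 9.59 and 0.388 to 54.6 TPM). None of these 3 passed the test.

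The conventional kinesin kept a high axonal level. Kif5b, the heavy chain expressed in most cell types, stood at 120, 111, 116 and 102 TPM in somatic RNA and at 116, 177, 109 and 143 TPM in axonal RNA, with overlapping ranges on this scale. Kif5c stood at 227, 199, 199 and 199 TPM against 134, 77.1, 177 and 180 TPM. Kif5a stood at 584, 565, 543 and 554 TPM against 97.0, 59.3, 156 and 89.9 TPM. Thus Kif5a was the highest of the 3 in every somatic library and not the highest in any axonal one. The log2 changes were 3.08 and 3.04 for Kif5b (adjusted p = 0.0121 and 0.0141, edgeR) and 1.78 and 2.62 for Kif5c (adjusted p = 0.0339 and 0.0187), while Kif5a, at -0.10 and 0.49, did not pass. Relative to the median gene these came to 3.84 and 3.68 for Kif5b and 2.53 and 3.25 for Kif5c. With total-count scaling Kif5b kept its calls, Kif5c was at 0.18 and 1.03 and lost both (adjusted p = 0.711 and 0.0700, edgeR), and Kif5a was at -1.69 and -1.01 and was called lower with shControl. The Kif5c call with shControl was also lost with the replicate block (adjusted p = 0.0573) and without axonal shControl replicate 1 (0.113). Klc1 stood at 1248, 1307, 1135 and 1327 TPM against 379, 530, 713 and 689 TPM. It was higher on the main count scale (1.40 and 2.07, adjusted p = 0.0335 and 0.0180, edgeR, or 2.15 and 2.71 relative to the median gene). With total-count scaling it turned to -0.18 for shControl and lost its call at 0.49 for shPum2, and its TPM was lower in every axonal library. With shControl the call was also lost with RLE scaling (adjusted p = 0.0551), in limma voom (0.0750) and without either axonal shControl library, and with shPum2 in the fit of its 4 libraries (0.0618). Klc4 was at 21.8 to 26.6 TPM against 9.08 to 21.3 TPM and did not pass in edgeR. The heavy chains are alike in sequence, and reads that fit more than 1 of them were divided by the authors' estimate, which also holds for the paralogous light chains of dynein.

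Kinesin-2 showed the reverse. Kif3b stood at 74.3, 75.2, 72.4 and 83.0 TPM in somatic RNA and at 0.302, 0.0944, 0.644 and 0.0541 TPM in axonal RNA. Kif3c, a partner of Kif3a in neurons, stood at 234, 247, 195 and 238 TPM against 0.635, 0.473, 6.54 and 0.439 TPM. All axonal values were far below the somatic ones. Kif3b was lower with both hairpins (log2 change -5.76, adjusted p = 0.0194, and -5.45, adjusted p = 0.0208, edgeR), as was Kif3c (-5.99, adjusted p = 0.0171, and -3.64, adjusted p = 0.0361). Relative to the median gene these were -5.00 and -4.81 for Kif3b, and -5.24 for Kif3c with shControl. The shPum2 calls of both were lost in the fit of 4 libraries (adjusted p = 0.0545 and 0.113), and that of Kif3c in limma voom (0.114). Without axonal shControl replicate 2 the shControl calls of both and the shPum2 call of Kif3c were lost, with adjusted p from 0.0508 to 0.0573. Kif3a, the shared partner of both, was at 131, 126, 119 and 126 TPM against 0.172, 13.9, 8.68 and 0.159 TPM and did not pass with either hairpin.

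None of the 4 kinesin-3 genes tested, which do not include Kif1a, passed in either comparison. Kif1b, a carrier of mitochondria and synaptic vesicle precursors, was the highest of them in axons, at 42.6, 13.1, 56.9 and 30.9 TPM against 259, 245, 255 and 247 TPM in somatic RNA. Kif1c was at 26.0, 23.8, 37.6 and 19.0 TPM against 1.08, 3.66, 4.73 and 1.81 TPM, and Kif13a at 20.4 to 23.2 TPM against 0.954 to 7.17 TPM. Kif1bp, the kinesin binding protein that blocks several kinesin motor domains, was at 64.5 to 69.9 TPM against 6.81, 0.200, 5.74 and 0.0554 TPM, also not past the threshold. Of the other kinesins, Kif2a, which takes tubulin off microtubule ends and prunes axon branches in mice, was at 69.4 to 71.6 TPM against 0.119, 15.2, 1.92 and 0.585 TPM. Kif26b was at 13.8 to 15.6 TPM and held 1, 471, 4 and 3 counts in the axonal libraries, so that axonal shControl replicate 2 supplied nearly all of them. With total-count scaling Kif26a, with 0 axonal counts, was at least 81.5-fold lower in axonal than in somatic shControl RNA. With shPum2 it was at least 81.6-fold lower, taking 3 axonal counts per group as the floor. For Kif9, a kinesin of motile cilia and sperm tails, the bounds were at least 30.6-fold and 32.5-fold. Both passed in edgeR with either hairpin, with adjusted p between 0.0190 and 0.0223, and Kif26a lost both calls with the replicate block (adjusted p = 0.0541 and 0.0559). These fold bounds, and the fold intervals and bounds given for other genes, use total counts and not the TMM scaling of the tests. They cover counting error only.

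Changes followed transcript length across all genes. With shControl the median log2 change was 2.34 for the 1189 genes whose longest transcript had under 1000 bases, 0.14 for those of 1000 to 1999 bases, -1.34 for 2000 to 3999 bases and -2.50 for 4000 bases or more. All 5 tested motor genes under 1000 bases, Dynlrb1, Dynlt1, Dynll1, Dctn3 and Dctn6, were among the 8 higher in axons. Dynlrb2, of 533 bases, did not pass the filter on low counts. Of all tested genes that short 40.4% were called higher. Within that length class Dynlrb1 stood at percentile 82.7 and Dctn6 at percentile 47.2. The remaining 3, Kif5b, Kif5c and Klc1, came from transcripts of 2892, 3702 and 2386 bases, a length at which 4.10% of genes were called higher, and stood at percentiles 93.4, 85.9 and 82.8 of it. With shPum2 they stood at percentiles 95.1, 93.2 and 90.8. These 3 genes were named because they passed on this same change, so their percentiles describe it and are no further test. Among genes of 4000 bases or more Dync1h1 was at percentile 34.0, Kif3b at 20.6 and Kif26a at 1.20. Over the 44 genes the Spearman correlation of length and log2 change was -0.39 with shControl and -0.53 with shPum2, and over all 12337 genes -0.32 and -0.35, as a description across genes of the same 8 libraries, which differ in kit and depth between compartments. Kit and compartment changed together here, so the part of length in these changes was not tested apart from them.

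**Figure D2:**
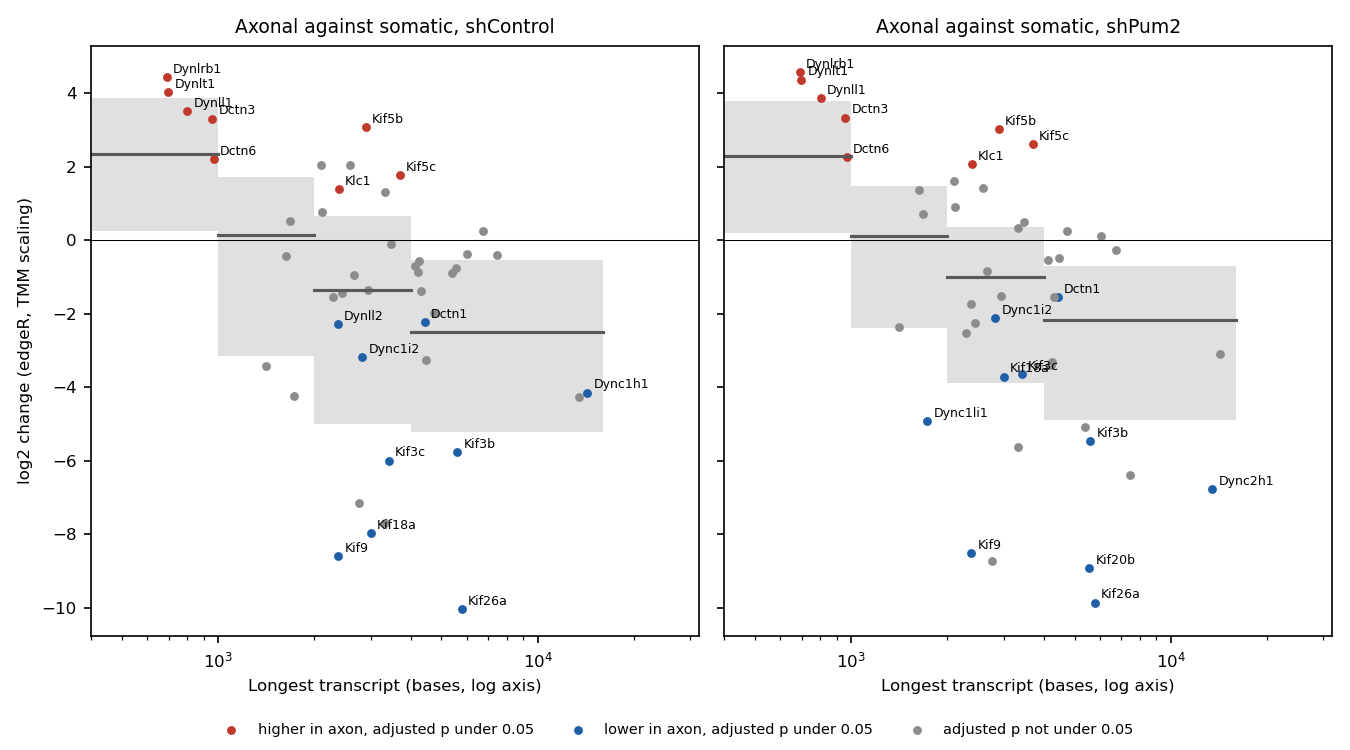
Log2 change of axonal over somatic RNA (edgeR, TMM scaling) against the longest transcript in bases (log axis) for the 44 tested motor genes, with shControl at left and shPum2 at right. Grey boxes span the middle 50% of all genes in a length class and the dark line is their median. Of the 5 red points left of 1000 bases Dctn6 lies near that median and the other 4 above it, and Kif5b, Kif5c and Klc1 lie above the box of their own class.

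Within families that share a role, the mix of members differed between compartments, a comparison that does not depend on scaling between libraries. Dynll1 made up 56.6% to 59.4% of the TPM of Dynll1 and Dynll2 in somatic libraries and 98.3% to 98.9% in axonal ones. Kif5a made up 62.7% to 64.8% of the 3 kinesin heavy chains in somatic and 18.9% to 35.4% in axonal libraries, and Kif5b 11.9% to 13.5% and 24.5% to 56.5%. Among the light intermediate chains Dync1li1 gave 52.7% to 55.2% and 1.14% to 17.6%, with only 19, 81, 64 and 3 counts in the axonal libraries. Dync1i1 rose from 45.5% to 46.4% of the intermediate chains to between 50.6% and 86.8%, and Dynlt1 from 91.0% to 92.9% of the Tctex type chains to between 98.5% and 99.7%. In each of these 5 families the ranges did not overlap. Transcript lengths differ within families: Dynll1 and Dynlt1 (801 and 698 bases) are shorter than Dynll2 and Dynlt3 (2370 and 2109 bases). Dync1li1 (1730 bases), whose share was lower in axons, is also shorter than Dync1li2 (4300 bases). The part of length or kit in these shares was not tested. The exact permutation test of 4 somatic against 4 axonal libraries, two-sided, gave p = 0.0286, the smallest it can give, and 0.0381 after Benjamini-Hochberg adjustment over the 8 shares tested. This test pools the hairpins. The families were chosen with earlier results of these data known, so these p-values describe the separation and are no independent support. The libraries of a group may also not be independent of each other. How often other gene families would separate in this way between these compartments was not tested. Kif3a among kinesin-2 and Klc1 among light chains did not pass (exact permutation p = 0.429 and 0.600).

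The transcripts of Klc1 also differed. The transcript of 2386 bases made up 31.5%, 34.3%, 32.9% and 33.6% of Klc1 TPM in the somatic libraries and 79.0%, 79.4%, 70.2% and 73.5% in the axonal ones, while that of 1917 bases made up 59.0% to 62.1% and 14.4% to 23.6%. The third transcript, of 2308 bases, made up 5.51% to 6.73% in somatic and 3.95% to 6.67% in axonal libraries. The exact permutation test gave p = 0.0286, adjusted 0.0381 over the same 8 shares. The limits stated for the families hold for this p-value too. Klc1 transcripts share most of their sequence, and their shares are the authors' kallisto estimates.

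**Figure D3:**
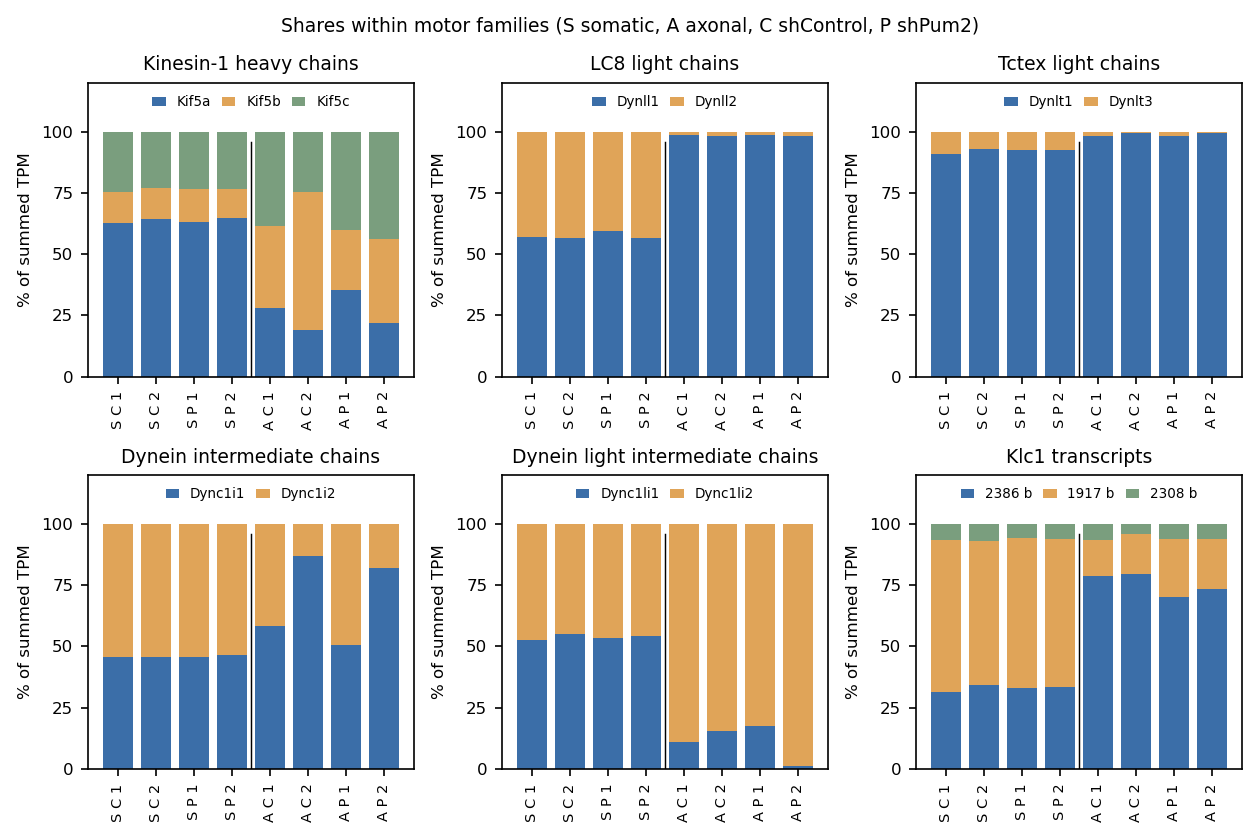
Share of the summed TPM of a family taken by each member, and of Klc1 taken by each transcript (length in bases, b), in the 4 somatic (S) and 4 axonal (A) libraries with shControl (C) or shPum2 (P). The axonal bars differ from the somatic ones in all 6 panels, and Dynll1 takes at least 98.3% of its pair there.

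Of 48 further genes of motor transport outside the symbol rule (adaptors, regulators and remaining subunits), 42 were found and 41 tested between compartments. Of these, 5 were higher and 9 lower in axons with shControl, and 6 and 5 with shPum2. These are 12.2% and 22.0% of the 41 with shControl and 14.6% and 12.2% with shPum2, beside 9.41% and 18.5%, and 8.45% and 16.2%, of all genes. Their median log2 change was -1.39 and -0.91, beside -0.75 and -0.64 for all genes. Trak2, an adaptor that joins mitochondria to kinesin-1 and dynein, stood at 82.0, 90.8, 77.6 and 80.9 TPM in somatic RNA and at 978, 695, 1683 and 843 TPM in axonal RNA. Its log2 change of 6.05 with shControl (SE 0.37, adjusted p = 0.00389, edgeR) was larger than the increase of any of the 44 tested motor genes. Trak1, its relative, was at 71.3 to 79.2 TPM in somatic and at 0.723 to 11.2 TPM in axonal RNA. Mapk8ip1, a scaffold that binds kinesin light chains, was higher in axons with both hairpins (2.22 and 2.62, adjusted p = 0.0104 and 0.00758), whereas Madd, an adaptor of kinesin-3, and Snph, which anchors mitochondria, were lower (-7.00 and -5.84 with shControl, adjusted p = 0.00547 and 0.0105).

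Pum2 knockdown left no detectable change in these genes in somatic RNA. None of the 44 tested genes passed in edgeR and none had an unadjusted p under 0.05, and DESeq2 and limma voom called none. Among all 12346 genes 0.0081% were called, which is Pum2 itself, 74 had an unadjusted p under 0.05, and DESeq2 called 2. Leaving the spindle kinesins aside, the log2 changes of the other 35 tested genes lay between -0.16 and 0.30, with a median of -0.05 (0.01 over all genes). The kinesin-1 heavy chains changed by -0.07 to -0.10, and Klc4 by -0.15 (SE 0.10). By CPM, 6 of 44 genes (13.6%) had groups that did not overlap, Kif27 higher and Dctn1, Dctn3, Kif26b, Kif5a and Klc4 lower with shPum2, beside 24.5% of all genes.

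The 9 kinesins of the mitotic spindle were low in somatic RNA and shared 1 library in which they were highest. Kif20a, which acts in cytokinesis, stood at 10.3, 7.82, 14.7 and 8.01 TPM. Kif23, which bundles the microtubules of the central spindle, was at 2.54, 0.813, 6.45 and 1.84 TPM, and Kif2c, which depolymerises microtubules at centromeres, at 1.41, 0.391, 4.75 and 0.698 TPM. Somatic shPum2 replicate 1 was the highest somatic library for all 9, by 1.43-fold to 3.67-fold over the next, whereas it was the highest for 8 of the other 40 genes and for 41.8% of all tested genes. In that library 10 markers of dividing cells summed to 187 CPM, against 91.7, 70.6 and 72.3 CPM in the other somatic libraries, and 8 fibroblast markers to 8515 CPM against 3270, 1649 and 1625 CPM. Macrophage and blood markers summed to 200 CPM there against 88.1, 58.1 and 47.9 CPM, and markers of Schwann cells and satellite glia to 96.1 CPM against 61.8, 38.7 and 51.1 CPM. Neuron markers were lowest there, at 31630 CPM against 36490 to 37030 CPM. The part of dividing or non-neuronal cells in these levels was not tested. All 9 log2 changes with shPum2 were positive (median 0.59, from 0.27 to 1.62) but none passed: the largest, Kif2c, was 1.62 with SE 1.06 (adjusted p = 0.9997, edgeR). Without that library 2 of 9 were positive and the median was -0.24. Without shPum2 replicate 2, the other library of the group, 8 of 9 had an unadjusted p under 0.05, as had 1741 genes in all. Kif18b, Kif11, Kif22, Kif15, Kif18a and Kif20b complete the class, and the dividing-cell kinesin Kifc1, outside the symbol rule, was also highest there (3.64, 1.92, 7.57 and 1.40 TPM).

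**Figure D4:**
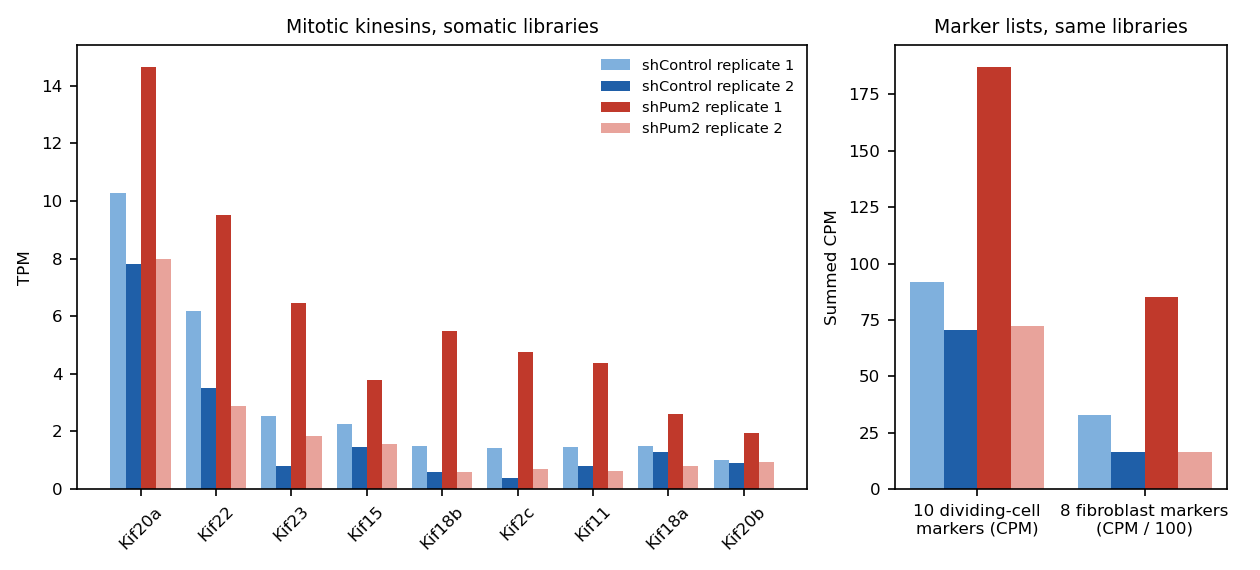
TPM of the 9 mitotic kinesins in the 4 somatic libraries (left), and summed CPM of marker lists of dividing cells and, divided by 100, of fibroblasts in the same libraries (right). The dark red bar, shPum2 replicate 1, is the tallest in every set, and shPum2 replicate 2 is near the shControl libraries.

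Promoters of genes transcribed in late cell cycle often hold a CCAAT box and a cell cycle element, TTTGAA or TTTAAA. Since these 9 kinesins were all highest in the same library, their promoters were searched for the CCAAT box and either form of the element on both strands, in the 250 bases before each start in RefSeq's table of assembly GRCr8. All 9 genes had an entry, with 2 starts for Kif2c. Of these 10 windows 7 held TTTGAA or TTTAAA, as did 25.4% of the 33469 promoters in the table, and 5 held CCAAT, against 34.0%. Both kinds occurred in 5 (Kif11, Kif20a, Kif20b, Kif22 and Kif23), against 9.04% of all promoters. Shown are the last 150 bases before the start, 5′ to 3′ on the gene's strand, of the 4 with both kinds inside that stretch, with matches on either strand in capitals.
Kif11: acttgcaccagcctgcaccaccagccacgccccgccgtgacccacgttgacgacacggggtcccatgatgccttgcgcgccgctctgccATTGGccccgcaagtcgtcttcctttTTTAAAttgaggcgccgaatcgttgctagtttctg
Kif20a: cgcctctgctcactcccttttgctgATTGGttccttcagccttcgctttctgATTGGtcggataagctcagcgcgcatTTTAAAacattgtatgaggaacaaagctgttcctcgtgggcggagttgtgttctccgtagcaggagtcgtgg
Kif22: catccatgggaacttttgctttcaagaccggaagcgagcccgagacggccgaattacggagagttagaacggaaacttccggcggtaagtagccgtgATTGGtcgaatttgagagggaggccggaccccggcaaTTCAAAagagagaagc
Kif23: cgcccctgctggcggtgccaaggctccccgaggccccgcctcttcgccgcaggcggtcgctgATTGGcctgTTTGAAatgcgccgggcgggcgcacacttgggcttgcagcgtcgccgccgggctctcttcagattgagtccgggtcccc
In GRCr8 they lie at chr1:244536717-244536866 (plus strand, Kif11), chr18:26504272-26504421 (plus, Kif20a), chr1:191080879-191081028 (minus, Kif22) and chr8:71320585-71320734 (minus, Kif23). ATTGG is CCAAT and TTCAAA is TTTGAA read on the other strand. In each of the 4 a CCAAT box lay upstream of the TTTGAA or TTTAAA. A match is a run of letters and says nothing of binding in these cells, or of why these genes were highest in the same library.

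Axonal counts of the mitotic kinesins ranged from 0 to 179. Kif2c had 0 counts in every axonal library, and Kif18b had 0, 0, 1 and 0. Kif18a, which brings chromosomes to the spindle middle, had 0, 0, 1 and 1 counts. It was lower in axonal RNA with both hairpins (adjusted p = 0.0192 with shControl and 0.0340 with shPum2, edgeR). On total counts it was at least 19.6-fold lower in axonal shControl RNA. With shPum2 its somatic level was 38.4-fold the axonal one on that scale, with a counting interval of 10.4 to 320. Kif20b had 4, 12, 0 and 0 axonal counts and passed with shPum2 (adjusted p = 0.0190, edgeR). On total counts it was at least 41.9-fold lower there. The Kif18a call was lost in limma voom with shControl (adjusted p = 0.125), and with shPum2 in DESeq2 (0.0934), limma voom (0.313), without the filter, with the replicate block (0.0584), in the fit of the 4 shPum2 libraries and without either axonal shPum2 library. That of Kif20b was lost in limma voom (adjusted p = 0.0627). Kif22, the most abundant of the 9 in axons, had 29, 179, 28 and 169 counts, and Kif20a had 13, 39, 21 and 40. Kif23 had 5, 66, 99 and 0 counts, Kif15 had 9, 12, 6 and 0, and Kif11 had 6, 0, 73 and 6. None of these 5 passed with either hairpin.

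Pum2 knockdown in axons could be tested for 32 of the 49 genes, and none passed. None had an unadjusted p under 0.05. DESeq2 and limma voom called none either. Of the further transport genes 0 of 41 passed in somatic and 0 of 37 in axonal RNA, with 0 and 1 at an unadjusted p under 0.05 and 0 called by DESeq2. Among all 8517 genes the share called was 0%, 257 had an unadjusted p under 0.05, and DESeq2 called 159. The smallest p among the 32 was 0.225, for Kif2a, with a log2 change of -2.80 and a SE of 2.13. Its counts were 8 and 1087 with shControl and 114 and 57 with shPum2, so the groups overlapped and the direction came from 1 library. Dctn5 (1.73, SE 1.64), Kif5c (0.68, SE 0.63) and Klc1 (0.55, SE 0.58) came next. Leaving out single axonal libraries moved these 3 between 0.64 (without shPum2 replicate 2) and 6.94 (without shControl replicate 1), between 0.20 and 1.30 (without the same libraries), and between 0.11 (without shPum2 replicate 2) and 0.89 (without shPum2 replicate 1). For these 3 both shPum2 libraries lay above both shControl libraries by CPM. By that measure 5 of 32 genes (15.6%) had groups that did not overlap, Dctn1, Dctn5, Kif5c and Klc1 higher and Klc4 lower, beside 27.8% of all genes. The standard errors, of 0.58 or more for the 4 genes named, set the size of change that these libraries could show.

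**Figure D5:**
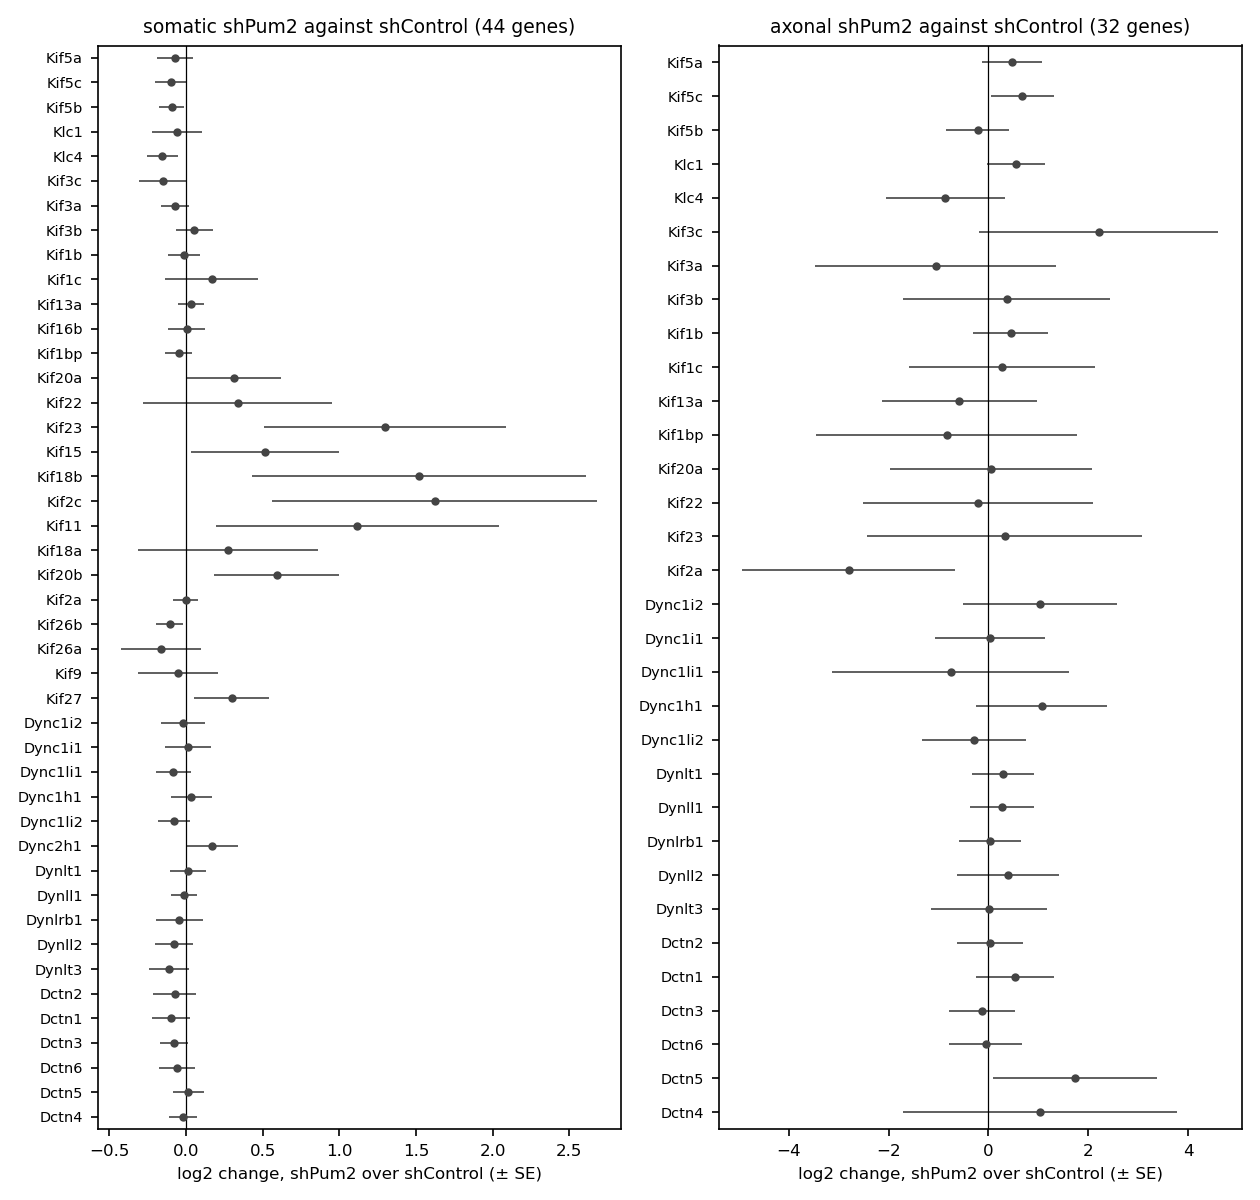
Log2 change of shPum2 over shControl with its SE from edgeR for the genes tested in somatic (left, 44 genes) and axonal (right, 32 genes) RNA, each panel with its own axis. Somatic changes other than those of the mitotic kinesins lie within 0.30 of 0, and axonal SEs are many times wider.

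Whether the knockdown effect differed between compartments was tested in the fit of all 8 libraries. None of the 44 genes passed, 1 had an unadjusted p under 0.05, and DESeq2 called none. Over all 12337 genes 0% were called, 964 had an unadjusted p under 0.05 and DESeq2 called 609. That gene was Kif20b (adjusted p = 0.343, edgeR), whose axonal shPum2 libraries had 0 counts. Kif26b (log2 difference -6.01, adjusted p = 0.572), Kif3c (2.35, adjusted p = 0.597) and Kif18a, with at most 1 count in each axonal library, followed. Calls that appeared with 1 hairpin alone, Dync1h1 and Dynll2 with shControl and Dync1li1, Dync2h1 and Kif20b with shPum2, are therefore not shown to differ between hairpins. Without axonal shControl replicate 1, Kif26b and Kif2a passed this test, as their axonal shControl level then rested on replicate 2 alone, which held 471 and 1087 counts.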

How the data were processed

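RNA-seq of 8 libraries was used. Per the file headers, the authors' deposited library files give kallisto estimated counts and TPM for 18321 RefSeq transcripts, with length and effective length. Their 2 deposited comparison tables hold, per gene, the normalised signal averaged over libraries, a log2 fold change, a test score and p-values. The submitters' processing notes name Rnor_6.0, kallisto and DESeq2; kallisto's settings are not given in the sources used here.

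Transcripts were matched to symbols through a RefSeq table of GRCr8 (17367, or 94.8%), and 1 member, Kif1bp, by its newer symbol Kifbp. Estimated counts were summed per gene and rounded. TPM was used for levels between genes and was not tested, save for shares within families. edgeR 4.0.16 in R 4.3.3 gave quasi-likelihood tests (TMM scaling, filterByExpr, Benjamini-Hochberg adjustment over all genes, threshold 0.05), fitted to the 4 libraries of a compartment for knockdown and to all 8 for compartment and interaction. The SE is the log2 change over the root of F. DESeq2 1.42.0 and limma 3.58.1 were alternatives, with other scalings, no filter, a replicate block and each library left out. The fits were also run on simulated data in which all groups of a comparison shared the same spread per gene, and the outcome is not given here. CPM was scaled to total counts. Genes were named where they passed a test, had the smallest p, or led their class in TPM, and all members with 0 axonal counts. Members, classes and lists were chosen with earlier results of these data known.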

Additional observations from a re-analysis of the deposited data

Results flagged for a closer look

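Dync2li1, a light intermediate chain of the dynein of cilia, was not matched in the library files, so its libraries were not compared here. In the authors' deposited table of the axonal comparison its log2 fold change was 7.03, with an adjusted p of 0.0215 at a mean normalised signal of 72.0. It was the 1 member past 0.05 there, of 34 members that had an adjusted p. Over all genes 357 of 17320 were past 0.05, so 1 call among the 53 members was near that share. The authors' deposited somatic table gives Dync2li1 -0.07 at a signal of 222, with an adjusted p of 0.9999. No value of the single libraries was used here, so whether both shPum2 libraries carried the axonal signal was not analysed here. In the same axonal table Kif21b (3.26) and Kif13b (-2.62) had no adjusted p, and Kif19 had a signal of 0.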

How the results depend on the processing

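The counts of members called kept within 1.5 times of the main count under both other scalings, without the expression filter, in DESeq2, in limma voom, with the replicate block and in the fits of 4 or 8 libraries. Leaving out libraries was different. The 17 members called between compartments with shControl became 0 to 19 and the 18 with shPum2 became 0 to 22. The 0 arose without either somatic library of the hairpin compared, where a lone somatic library is assumed to vary like the other groups. Without a somatic library of the other hairpin most calls were lost. Those left were all higher, with Dynlrb1, Dynlt1 and Dynll1 among them each time. The share of all genes still called in each of these fits is not given here. The cause of the losses was not tested. Leave-one-out gave 0 to 2 members for the interaction and 0 for either knockdown comparison. Over all genes these fits gave 0 to 5539 calls for shControl (3445 in the main fit), 0 to 4862 for shPum2 (3046), 0 to 713 for the interaction (0), 0 to 1 for somatic (1) and 0 to 31 for axonal knockdown (0). DESeq2 called 2, 159 and 609 genes in the somatic, axonal and interaction tests, the fit of 8 libraries 0 in the somatic one, no filter 6 in the axonal one, and limma voom 1928 between compartments with shPum2. Of the values of single genes, 486 kept their direction and side of the threshold, 178 kept their direction but no longer passed, 1 came to pass and 4 turned sign. The 4 were Klc1 in shControl with total counts (-0.18), Kif2c in somatic knockdown (-0.24 without shPum2 replicate 1, up to 2.74 over the leave-one-out fits), Kif2a in axonal knockdown (3.01 without shControl replicate 2, down to -3.76) and Kif26b in the interaction (1.54 without axonal shControl replicate 2, down to -7.02). With a replicate block 16 and 15 members were called between compartments (17 and 18 without), and 0 in each other test. The labels do not say what the numbers share, and the correlation of replicate differences was 0.67 between the somatic groups and 0.05 to 0.09 for the other pairs of groups.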
